A study of Mus musculus with 31 samples.

Results

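Long stretches of the mouse genome, 12 in number and called domains 1 to 12 here, were followed through oocyte growth by reduced representation bisulfite sequencing, an assay that reads the methylation of cytosines in CpG dinucleotides after cutting DNA at CCGG. The domains were chosen from these same libraries as runs of neighbouring 100-bp tiles whose methylation was higher in the last stage (Type7) than in the first (Type1). Levels in Type1 and Type7 therefore describe the choice and were not tested, whereas the 7 stages between them played no part in it. The 12 domains lie on 8 chromosomes, span 13.5 to 43.6 kb each and 299200 bp in all, and hold 1780 of the 1229947 CpG sites that had at least 5 reads in any library.

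All 31 libraries came from oocytes of the B6D2F1 (C57BL/6 x DBA/2) mouse cross, with no treatment or engineered allele named. Type1 and Type2 are oocytes of primordial follicles, Type3a and Type3b of primary follicles, Type4, Type5a and Type5b of secondary follicles, and Type6 and Type7 of antral follicles, by the tissue label. A second label, for developmental stage, names embryo stages for the same libraries, which goes against the tissue label and the titles, and it was not used. Type4 and Type5a had 5 libraries each and the other stages 3. Neither the size or age behind each stage name nor the number of oocytes or animals per library is given in the labels, so p-values here rest on library-to-library spread alone, part or all of which may be technical.

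Oocytes start growth with a genome that was stripped of most DNA methylation in the germ cells of the embryo. During follicle growth the methyltransferase DNMT3A, with its partner DNMT3L, lays methylation down anew, and in mouse oocytes it is known to settle mainly over transcribed gene bodies while active CpG-rich gene starts stay free of it. The mature oocyte therefore carries long methylated blocks separated by unmethylated ones, and imprints of maternal origin arise in the same period.

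By mm9 coordinates, domain 1 is chr13:55914701-55949700, domain 2 is chr5:143533501-143577100, domain 3 is chr11:101029201-101046000 and domain 4 is chr10:126979401-127021800. Domain 5 is chr15:76005201-76026100, domain 6 is chr19:7025701-7040400, domain 7 is chr4:141021401-141035200 and domain 8 is chr11:117910701-117943300. Domain 9 is chr5:23980501-24007100, domain 10 is chr11:115650501-115673300, domain 11 is chr19:45307101-45323600 and domain 12 is chr17:27241001-27254500. Exons and introns were not assigned, because the gene annotation used here is of another build (GRCm38.p6). Gene starts were instead placed by matching RefSeq sequence around each start to the 5-base sequence that the deposited files give at every CpG, a step added after the data had been seen. A window was placed only if at least 20 bases could be compared and none mismatched, so these are conditions and not results. This placed 49 start windows of 40 genes around 9 of the domains, with up to 165 matching bases. All 47 windows that could be checked against another kept the spacing of the RefSeq table.

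A few of these starts show how sequence at and beside the domains differed at the end of growth. Each line below gives the 250 bases before a gene's start, 5′ to 3′ on the gene's strand, from RefSeq (GRCm38.p6), with the CpGs read in these libraries in capitals; the mm9 position is that of the match. The first lies inside domain 3 and was methylated in Type7, the second lies 2.61 kb from domain 12 and was methylated in Type7, and those of Plcb3 and Tsen54, 3.90 kb from domain 6 and 2.75 kb from domain 10, were not.
Plekhh3 (chr11:101032617-101032866, minus strand): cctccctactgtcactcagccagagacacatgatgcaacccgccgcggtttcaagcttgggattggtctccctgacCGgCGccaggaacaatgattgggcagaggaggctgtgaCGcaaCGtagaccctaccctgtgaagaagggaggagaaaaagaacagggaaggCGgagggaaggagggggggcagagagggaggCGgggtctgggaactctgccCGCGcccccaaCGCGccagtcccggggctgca
Itpr3os (chr17:27238396-27238645, minus strand): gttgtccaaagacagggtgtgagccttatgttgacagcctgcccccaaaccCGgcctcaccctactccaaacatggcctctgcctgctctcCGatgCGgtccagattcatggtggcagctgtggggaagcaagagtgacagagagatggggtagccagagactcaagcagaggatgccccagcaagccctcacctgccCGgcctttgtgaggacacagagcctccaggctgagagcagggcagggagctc
Plcb3 (chr19:7044305-7044554, minus strand): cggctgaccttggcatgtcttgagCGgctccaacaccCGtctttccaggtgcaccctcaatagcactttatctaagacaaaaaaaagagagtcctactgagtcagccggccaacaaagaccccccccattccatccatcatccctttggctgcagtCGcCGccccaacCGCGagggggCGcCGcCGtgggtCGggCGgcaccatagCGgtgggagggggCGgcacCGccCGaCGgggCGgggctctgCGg
Tsen54 (chr11:115675803-115676052, plus strand): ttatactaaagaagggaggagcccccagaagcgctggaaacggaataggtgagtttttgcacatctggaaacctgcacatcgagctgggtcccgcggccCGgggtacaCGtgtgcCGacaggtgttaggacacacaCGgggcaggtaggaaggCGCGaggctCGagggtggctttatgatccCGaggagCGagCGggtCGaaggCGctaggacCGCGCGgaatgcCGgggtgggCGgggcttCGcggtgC
The 250 bases held 14 CpGs at Plekhh3, 4 at Itpr3os, 20 at Plcb3 and 24 at Tsen54.

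Reads over CpG sites ran from 7949652 to 60361665 per library, and the domains held 504 to 1160 sites with at least 5 reads in a library. A level below is the percentage of methylated reads, averaged over the 100-bp tiles (at least 3 sites of at least 5 reads) that had a value in 2 or more libraries at each of the 9 stages (common tiles). Of 290 tiles measured in the domains, 81 met that condition, from 12 in domain 2 to 3 in domain 12. A library's level averages the common tiles it measured, at least 3 of them, so the tiles averaged can differ between libraries and stages. Domain 11 had 1 such tile, too few for a level, and is given over its 9 common CpG sites. In 9 libraries (1 each of Type1 and Type3a, 3 of Type4, 2 of Type5a, 2 of Type6) CpG-dense tiles of the X chromosome were more methylated than CpG-dense autosomal ones, by 0.978 to 10.6 points, against -0.466 points or less in the other libraries. Those values are given beside the results they move with.

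The choice itself was a large contrast. Of 126 domain tiles that could be tested between Type7 and Type1, 124 were higher in Type7 at an adjusted p under 0.05 and 20 points, against a background of 16.8% higher and 0.13% lower of 58522 tiles; this contrast chose the members and is no result. The 2 that missed the threshold lie in domains 9 and 11. Across the 11 domains with a tile level, stage means ran from 0.931 to 9.80% in Type1 and, except in domain 9, from 95.4 to 99.8% in Type7.

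**Figure D1:**
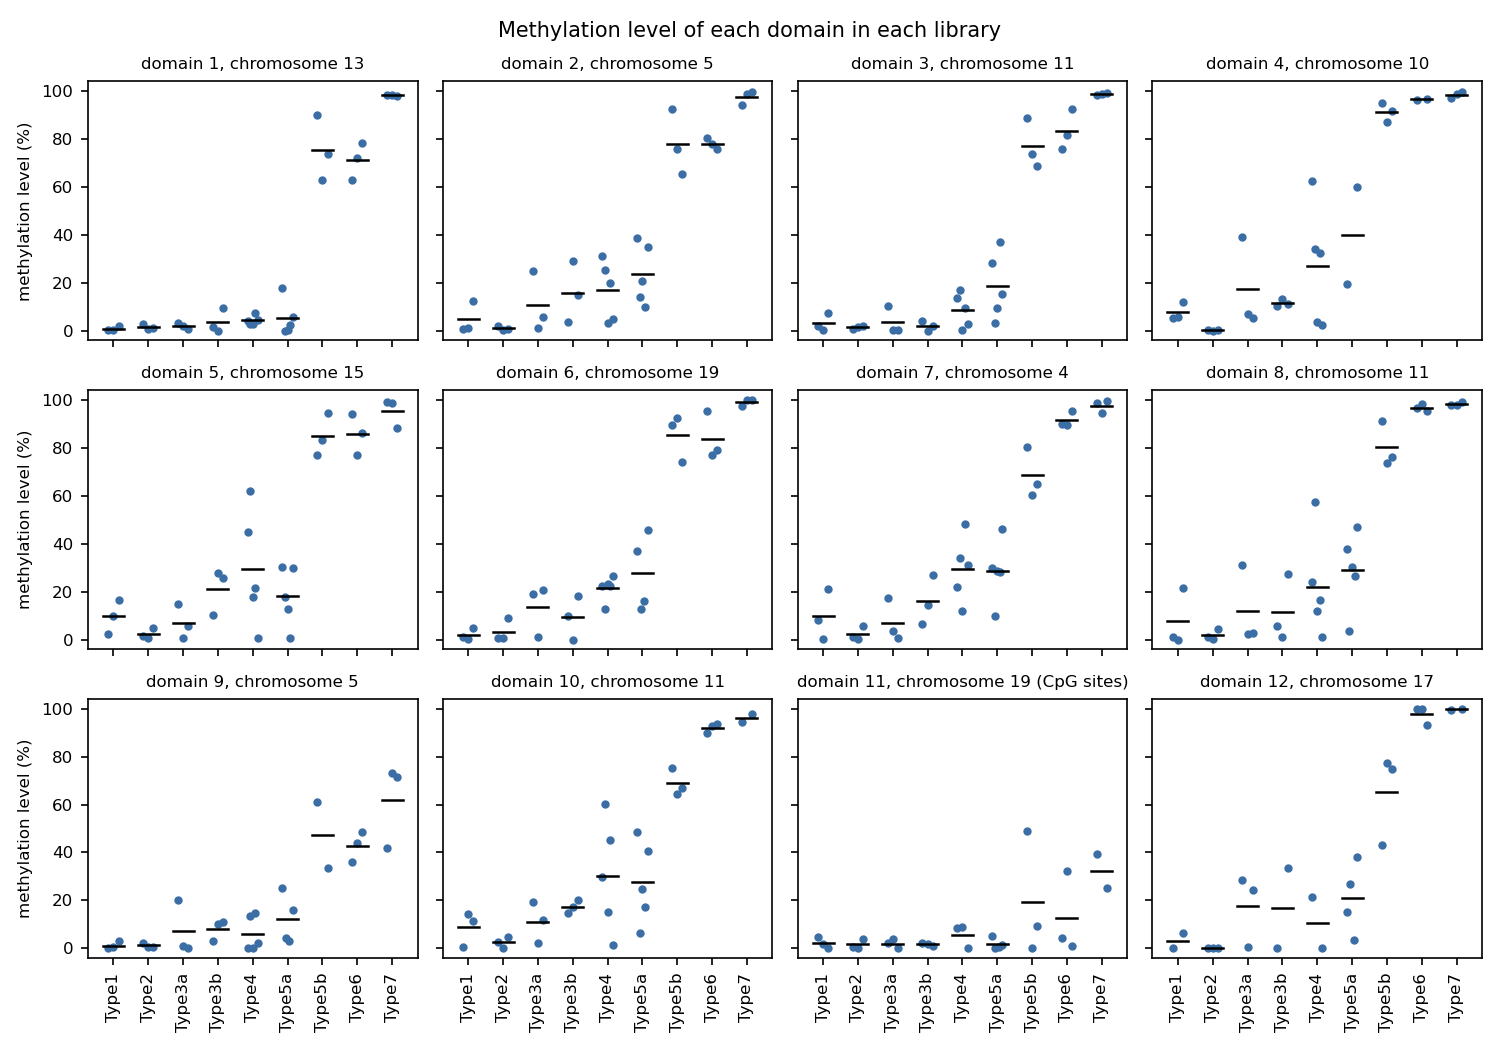
Methylation level (%, vertical axis) of each domain in each library (points) by stage, with stage means as bars; domain 11 is shown over CpG sites and the others over 100-bp tiles. No stage mean exceeded 40% up to Type5a in the 11 domains with a tile level, and in each of them all Type5b libraries lay above all Type5a libraries.

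Up to Type5a the domains held little methylation, and no change between successive stages passed the test. The median over the 11 domains was 1.69% in Type2, 10.6% in Type3a, 11.7% in Type3b, 21.5% in Type4 and 23.7% in Type5a. Without the 9 libraries of high X levels it was 3.12% in Type3a, 4.11% in Type4 and, over 10 domains, 21.9% in Type5a, with Type2 and Type3b as before. Region levels were compared with limma over all 31 libraries, in a table of 1531 regions made of the domains and fixed 25-kb windows elsewhere, with Benjamini-Hochberg adjustment; a region was called when it passed 0.05 after adjustment and moved by 20 points or more. For Type3a minus Type2, Type3b minus Type3a, Type4 minus Type3b and Type5a minus Type4, 0 of 11 domains and 0% of all regions were called; at an unadjusted p under 0.05 there were 103, 30, 97 and 100 regions, none of them a domain. The domain differences of these steps ran from -11.2 points (domain 5, Type5a minus Type4) to 17.8 points (domain 12, Type3a minus Type2).

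Domain 1 had the lowest mean of the 11 in Type3a, Type4 and Type5a. Its 5 Type4 libraries read 4.17, 2.97, 2.85, 7.33 and 4.64%, and its 5 Type5a libraries 17.7, 0, 0.551, 2.42 and 5.96%. Thus 1 Type5a library reached 17.7% and the others lay at 5.96% or less. Domain 10 was more scattered: its Type4 libraries read 29.9, 60.2, 15.2, 45.0 and 1.28%, and its Type5a libraries 48.5, 6.43, 24.8, 17.3 and 40.5%. The ranges of both stages overlapped. Domains 4 and 5 spread as widely within Type4, from 2.32 to 62.6% and from 0.605 to 62.0%.

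The same libraries were high in many domains. In Type4, replicates 1, 2 and 5 averaged 25.4, 32.0 and 23.8% over the 10 domains measured in all 5 libraries, and replicates 4 and 6 averaged 9.04 and 7.72%. The first 3 are the Type4 libraries with X tiles above autosomal ones, by 6.75, 10.6 and 9.94 points, and the part of this in the levels was not tested. Type5a did not follow the X measure so closely: over 7 domains replicate 1 averaged 33.0% with an X measure of -3.86 points, and replicate 7 averaged 31.4% with 3.23 points. In Type3a, replicate 1, with an X measure of 1.86 points, was highest in 10 of 11 domains.

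Between Type5a and Type5b, both from secondary follicles, methylation rose in every domain with a tile level. All 11 were called higher, by 35 points (domain 9) to 70.2 points (domain 1), against 5.23% of the 1531 regions called higher and a median difference of 1.15 points over the 25-kb windows. Windows that themselves hold at least 5 gained tiles are a closer comparison: 27 of 52 (51.9%) were called higher, with a median difference of 22.2 points and a range of 0.05 to 64.4. Window levels also average tiles that were not gained, which can lower these differences, whereas all 81 common tiles of the domains were gained. As a share of their Type1 to Type7 difference, gained tiles outside the domains went from 18.7% in Type5a to 59.7% in Type5b. In 11 of 11 domains the lowest Type5b library lay above the highest Type5a library over tiles; over CpG sites, where domain 9 also has a value in Type5b replicate 3, the ranges of domain 9 overlapped. Domain 11, over its 9 sites, differed by 17.7 points (95% interval 0.695 to 34.6, limma adjusted p = 0.258) and was not called; on that scale 8.16% of 16366 regions were.

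Domain 1 changed most. Its Type5b libraries read 89.8, 63.1 and 73.7%, all above the highest Type5a value of 17.7%. The difference was 70.2 points (SE 4.21, limma adjusted p = 2.90e-11), and 72.1% of the distance from Type1 to Type7 fell in this one step. Domain 5, with Type5b libraries at 76.8, 83.1 and 94.3% after Type5a values of 0.516 to 30.2%, had the largest share of its gain here, 77.7% (66.6 points, adjusted p = 2.04e-05 by limma). Domain 3 rose by 58.3 points from Type5a values of 3.32 to 37.0% to 88.7, 73.7 and 68.9%.

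Domains 2, 6 and 8 moved by similar amounts. Domain 2 went from 10.1 to 38.6% in Type5a to 92.5, 75.9 and 65.5% in Type5b, a rise of 54.2 points. Domain 6 went from 12.6 to 45.8% (4 libraries) to 89.7, 92.6 and 74.1%, a rise of 57.6 points. Domain 8 went from 3.51 to 47.1% to 91.1, 73.9 and 76.4%, a rise of 51.4 points. Domain 4 rose by 51.3 points to 94.9, 87.3 and 91.5%, the highest Type5b mean of all (91.2%). Its tile level in Type5a rested on 2 libraries, 19.8 and 60.2%, both with X tiles above autosomal ones; over CpG sites all 5 Type5a libraries gave 12.8 to 49.1% and the rise was 56.6 points (limma adjusted p = 0.000219).

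Over tiles, the rise was smallest in domains 7, 9, 10 and 12; over sites domain 10 rose by 49.8 points, more than domains 8 (48.6) and 12 (48.7). Domain 7 read 80.5, 60.5 and 64.9% in Type5b, 40.1 points above Type5a. Domain 10 read 75.3, 64.3 and 66.9%, 41.3 points above. Domain 12 read 43.0, 77.4 and 74.7%, 44.0 points above, and domain 9 read 61.0 and 33.3% in the 2 libraries with a tile level, 35 points above. Over sites Type5b replicate 3 of domain 9 read 8.84%, below the highest Type5a value of 17.4%, and the rise was 27.4 points (limma adjusted p = 0.0314). Without the 9 libraries of high X levels, 9 of 9 domains that could still be fitted were called, with differences of 32.5 to 68.8 points. A fit on Type5a and Type5b alone called 7 of 11, losing domains 4, 9, 10 and 12, and a fit with the replicate number as a block also called 7, losing domains 8, 9, 10 and 12. The call of domain 4 was also lost without Type5b replicate 1 or 3 (49.4 and 51.1 points as domain 4 level Type5b minus Type5a) and that of domain 12 without Type5b replicate 2 or 3 (37.8 and 39.2 points as domain 12 level Type5b minus Type5a). With only tiles measured in at least 28 libraries, domain 9 level Type5b minus Type5a was 15.5 points and not called.

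**Figure D2:**
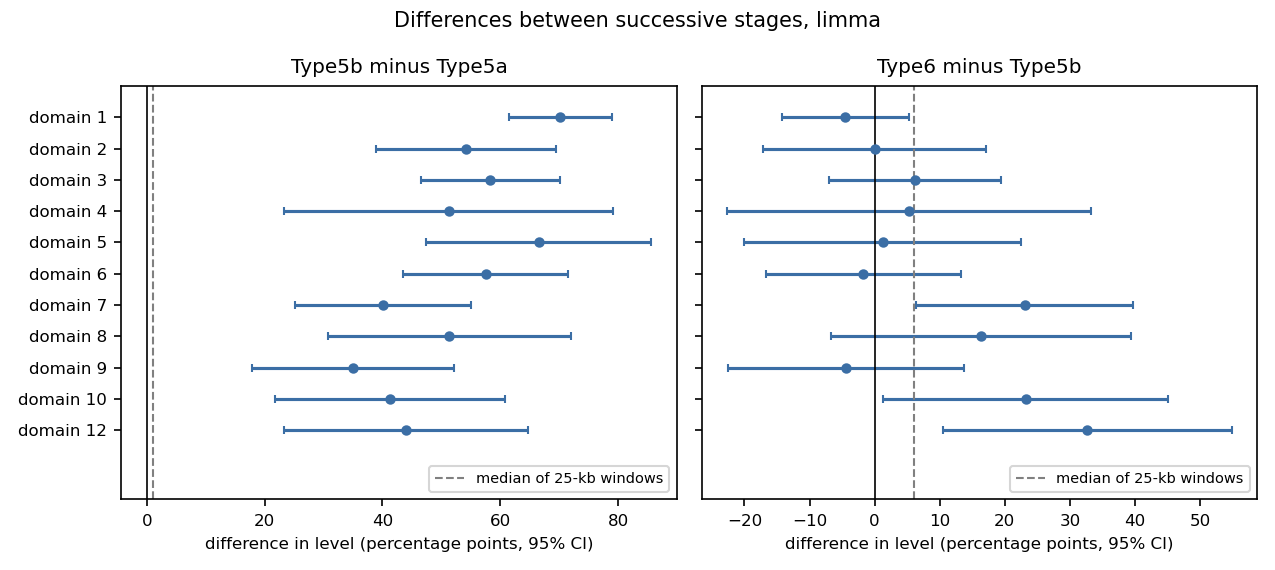
Difference in level (percentage points, horizontal axis) between successive stages for 11 domains, with 95% confidence intervals from limma; the dashed line is the median of the 25-kb windows. All intervals for Type5b minus Type5a lie above 0, and for Type6 minus Type5b those of domains 7, 10 and 12 do.

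From Type5b to Type6, the first antral stage, the mean differences varied between domains. None of the 11 was called (1.7% of 1531 regions were called higher, and 439 regions, 3 of them domains, had an unadjusted p under 0.05). The windows with at least 5 gained tiles, whose levels also average tiles that were not gained, had a median difference of 13.9 points. Of these, 4 of 52 (7.69%) were called higher. Domains 1 to 6 and 9 differed by -4.49 to 6.23 points, and domains 7, 8, 10 and 12 by 16.4 to 32.7 points. These groups are called the first and the second kind below. They were drawn from these differences, with no test between domains, and their intervals overlap: -6.98 to 19.4 in domain 3 and -6.70 to 39.4 in domain 8.

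Domain 1 is the clearest of the first kind. Its Type6 libraries read 63.1, 71.9 and 78.2%, overlapping the Type5b range of 63.1 to 89.8%, and all below the Type7 values of 97.8 to 98.6%. The Type6 mean was 4.49 points below Type5b (95% interval -14.2 to 5.23, limma adjusted p = 0.521). Domain 2 read 80.2, 78.0 and 75.7%, a difference of -0.00495 points from Type5b (95% interval -17.1 to 17.1), before 94.3 to 99.6% in Type7. Domains 3, 5 and 6 had Type6 means of 83.3, 86.0 and 83.8%, and domain 4, at 96.1 and 96.9% in 2 libraries, left little to gain.

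Domain 12 stands for the second kind. Its Type6 libraries read 100, 100 and 93.2%, all above the highest Type5b value of 77.4%, and the difference was 32.7 points (95% interval 10.5 to 54.9, limma adjusted p = 0.0861). Domain 10 read 89.8, 92.8 and 93.5%, all above the Type5b libraries, with a difference of 23.2 points (95% interval 1.34 to 45.0, limma adjusted p = 0.158). Over its CpG sites Type5b stood at 79.6% and not 68.8%, and this difference of domain 10 was 10.8 points (95% interval -7.77 to 29.5, limma adjusted p = 0.547), so its place in the second kind holds over tiles only. Domain 7 read 90.1, 89.6 and 95.3%, again all above, with a difference of 23.0 points (95% interval 6.39 to 39.7, limma adjusted p = 0.0927). Domains 7 and 10 were called when limma was fitted on these 2 stages alone. Domain 8 read 96.7, 98.2 and 95.5%, 16.4 points above Type5b (95% interval -6.70 to 39.4, limma adjusted p = 0.320). Type6 replicates 1 and 2 had X measures of 1.04 and 1.31 points and replicate 3 had -4.02. In replicate 3 alone domains 1, 2, 5, 6 and 9 read 78.2, 75.7, 86.4, 78.9 and 48.7%. Domain 3, of the first kind, read 92.4% there, above its highest Type5b library (88.7%), against 75.8 to 81.8% in replicates 1 and 2. Domains 4, 7, 8, 10 and 12 read 96.9, 95.3, 95.5, 93.5 and 93.2% in replicate 3.

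Domains could be placed in order at each stage, though most neighbours overlapped. In Type5b the order of means was domain 4 (91.2%), 6, 5, 8, 2, 3, 1, 10, 7, 12 and 9 (47.1%), and each overlapped the one before it in the libraries' ranges; 12 of 55 pairs did not overlap, 8 of them with domain 9 as the lower. In Type6 the order was domain 12 (97.7%), 8, 4, 10, 7, 5, 6, 3, 2, 1 and 9 (42.8%). There 31 of 55 pairs did not overlap, and every Type6 library of domains 1 and 2 lay below every one of domains 4, 7, 8, 10 and 12. These orders are a description, with no test between domains. The place of domain 9 rests on 6 common tiles, most of them at its start.

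Progress was computed to set the timing against the rest of the genome. It is the share of the Type1 to Type7 difference that a gained tile had reached. Its end points, Type1 and Type7, are also the stages that chose the domains, so no comparison of progress below is independent of the choice. Progress was compared within each library with that of the gained tiles outside the domains (6349 tiles). Those outside tiles stood at 24.3% in Type4, 18.7% in Type5a, 59.7% ± 6.91 (SD, n = 3) in Type5b and 89.7% ± 2.11 in Type6. In Type5b all 11 domains lay above that mean, from 64.3% in domain 12 and 64.5% in domain 10 to 86.2% in domain 5, 86.5% in domain 6 and 92.2% in domain 4. In Type6 domains 4, 7, 8, 10 and 12 lay above it, at 93.3 to 98.5%, and domains 1, 2, 3, 5, 6 and 9 below, at 72.2, 79.6, 83.8, 87.0, 85.2 and 57.0%. Of 52 outside windows, 9 were below domain 1 in Type5a, 43 in Type5b and 9 in Type6.

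Over the 13 secondary libraries as a whole no domain was called ahead of or behind the outside tiles by an exact two-sided sign-flip test adjusted over 63 regions. Among those regions 6.35% were called ahead and 22.2% behind, and 24 had an unadjusted p under 0.05. Domain 9 was lowest at -11.1 points (below in 9 of 11 libraries, exact p = 0.0742, adjusted 0.187), followed by domain 1 at -9.54 points (below in 10 of 13, exact p = 0.118, adjusted 0.243). Domain 4 was highest at 9.57 points (above in 5 of 10 libraries) and domain 6 next at 7.06 (above in 8 of 12). The test pools 3 stages, so differences of opposite sign can cancel. Domain 1 stood at 3.47% in Type4 and 4.50% in Type5a, against 24.3 and 18.7% outside. In Type5b it stood at 76.8% against 59.7%. The result therefore does not speak to timing within a stage. Without the libraries of high X levels the timing of domain 1 was 3.82 points and the timing of domain 9 was 0.39 points, and neither was called. Without Type5b replicate 1 the timing of domain 9 was -15.1 points and was called behind. Taken pairwise within libraries, the most one-sided of all pairs of domains were those of domain 6 with domains 1 and 3. Domain 6 was ahead of domain 1 in 11 of 12 libraries, by 16.7 points (SD 11.6), and ahead of domain 3 in 11 of 12, by 13.7 points (SD 11.2). Some other pairs were near even, such as domain 4 ahead of domain 7 in 5 of 10 libraries and domain 2 ahead of domain 7 in 6 of 13. The pairs were picked from all of them and not tested.

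The change of that relative progress from Type5b to Type6 was tested after the levels had been seen. Domain 1 fell by 34.6 points relative to the outside tiles (95% interval -54.6 to -14.6, limma adjusted p = 0.0305) and domain 2 by 30.2 points (95% interval -44.5 to -16.0, adjusted p = 0.0115). In this table of 63 regions 3.17% were called lower and 1.59% higher, and 18 had an unadjusted p under 0.05. Domains 3, 4, 5 and 6 differed by -23.2 to -31.3 points (adjusted p 0.0554 to 0.104), domain 9 by -38.6 points (95% interval -74.9 to -2.21, limma adjusted p = 0.143), and domains 7, 8, 10 and 12 by -11.4 to 3.49 points. In Type5b domains 1 to 6 already stood at a progress of 76.8 to 92.2%, against 59.7% in the outside tiles. They had less left to gain, which by itself lowers these values, and the test cannot separate this from a later timing. The outside tiles advanced from 59.7 to 89.7% in this step, so a negative value here can be a smaller advance or a fall. Mean progress itself was lower in Type6 in domains 1 (76.8 to 72.2%), 2 (79.8 to 79.6%) and 6 (86.5 to 85.2%). The same held in domain 9 (66.2%, from 2 Type5b libraries, to 57.0%). No level difference of these domains was called in this step. The relative-progress calls of domains 1 and 2 were lost without Type6 replicate 2, a library with X tiles above autosomal ones. Both were also lost in a fit on the 2 stages alone, and that of domain 1 without Type5b replicate 1 or 3 or Type6 replicate 1. A replicate block called domains 1, 2, 3, 5 and 6.

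**Figure D3:**
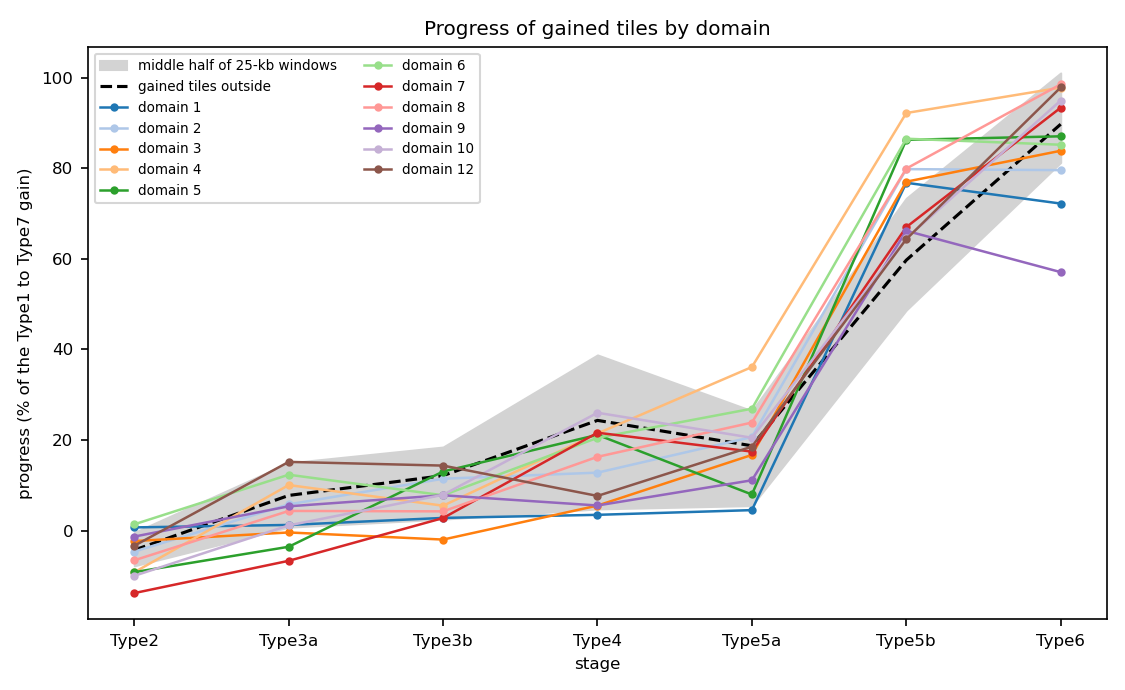
Progress (% of the Type1 to Type7 difference, vertical axis) of gained tiles by stage for 11 domains, for gained tiles outside (dashed) and for the middle 50% of 25-kb windows (grey). From Type5b to Type6 domain 1 went from 76.8 to 72.2% and domain 2 from 79.8 to 79.6%, while domain 12 went from 64.3 to 97.8% and domain 10 from 64.5 to 94.9%.

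Single tiles showed the same step, with much spread inside a domain. Of 131 domain tiles tested with a quasi-binomial model of the read counts, 52 rose from Type5a to Type5b and 0 fell, against 3.77% higher and 0.0963% lower of 65397 tiles. The median difference was 55.0 points, and 129 of the 131 differences were above 0. The domains were chosen for tiles that gain by Type7, whereas 16.8% of all tiles did, so part of this contrast follows from the choice. The share among gained tiles outside the domains was not counted. Leaving out Type5b replicate 1 left 10 calls, Type5b replicate 2 29 and Type5a replicate 5 34. From Type5b to Type6, 2 of 134 tiles rose and 3 fell, against 1.35 and 0.0621% of 61151.

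In domain 1 the range of its 9 tiles was 56.5 to 97.5% in Type5b and 43.3 to 84.5% in Type6. Its highest Type5b tile, chr13:55932301-55932400, went from 0.615% ± 1.38 (SD, n = 5) in Type5a to 97.5% ± 4.28 (n = 3) in Type5b, and then fell to 69.6% ± 7.98 in Type6, a called difference, before 100% in 2 Type7 libraries. That tile was picked for its high Type5b value, which favours both a rise to that stage and a fall from it. The lowest Type5b tile of domain 1, chr13:55926801-55926900, differed widely between libraries, from 16.1 to 90.6% in Type5b and 10.9 to 84.3% in Type6. In Type7 all 3 libraries read it at 100%.

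Domain 2 held tiles that were still low in Type6 and ended fully methylated. Its last tile, chr5:143577001-143577100, read 0.594% ± 1.33 (n = 5) in Type5a, 33.8% ± 5.08 (n = 2) in Type5b and 5.94% ± 7.19 (n = 3) in Type6, and 100% in both Type7 libraries. At the other extreme chr5:143556401-143556500 was already at 57.9% ± 22.7 (n = 4) in Type5a and 99.1% ± 1.49 in Type5b. Of its 12 tiles, 2 were below 20% and 9 above 80% in Type6.

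In domains 7 and 10 the tile lowest in Type5b was higher in Type6. Each was picked for its low Type5b value, which favours a rise from that stage, so its called rise is no test of late timing. In domain 7 chr4:141035001-141035100 read 32.8% ± 34.2 (n = 5) in Type5a, 25.6% ± 24.0 in Type5b and 85.4% ± 3.72 in Type6, a called rise, while chr4:141032401-141032500 was at 100% in Type5b. In domain 10 the first tile, chr11:115650501-115650600, read 26.2% ± 34.4 (n = 4), 30.2% ± 8.22 and 95.7% ± 3.97 in these stages, also a called rise. In Type6 all 10 tiles of domain 7, all 6 of domain 8 and all 3 of domain 12 were above 80%, against 4 of 9 in domain 1.

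The common tiles of domain 9 and the measured start of domain 11 were less methylated in Type7 than the other domains' levels. Domain 9 had 6 common tiles, 4 of them at its start, so its level leans toward that end. Over its 9 tiles tested between Type7 and Type1, the contrast that chose the domains, the median difference was 84.3 points, against 87.8 to 97.8 in the other domains. Domain 9 read 36, 43.8 and 48.7% in Type6 and 41.8, 73.1 and 71.3% in Type7. Its tiles differed by place: chr5:24007001-24007100, at its end, was at 99.4% ± 0.873 (n = 2) in Type5b, whereas the 4 common tiles at its start lay between 7.15 and 28.9% in Type6. Among these chr5:23980901-23981000 read 2.03% ± 3.51 in Type5b, 28.9% ± 5.21 in Type6 and 51.3% ± 26.4 in Type7. In domain 11 the 9 common sites read 49.0, 0 and 9.48% in the Type5b libraries, 4.44, 32.3 and 0.979% in Type6 and 39.3 and 25% in 2 Type7 libraries. Libraries of one stage differed widely there. The 9 sites cover 1 tile at the start of a domain whose last tile was at 100% in Type7.

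**Figure D4:**
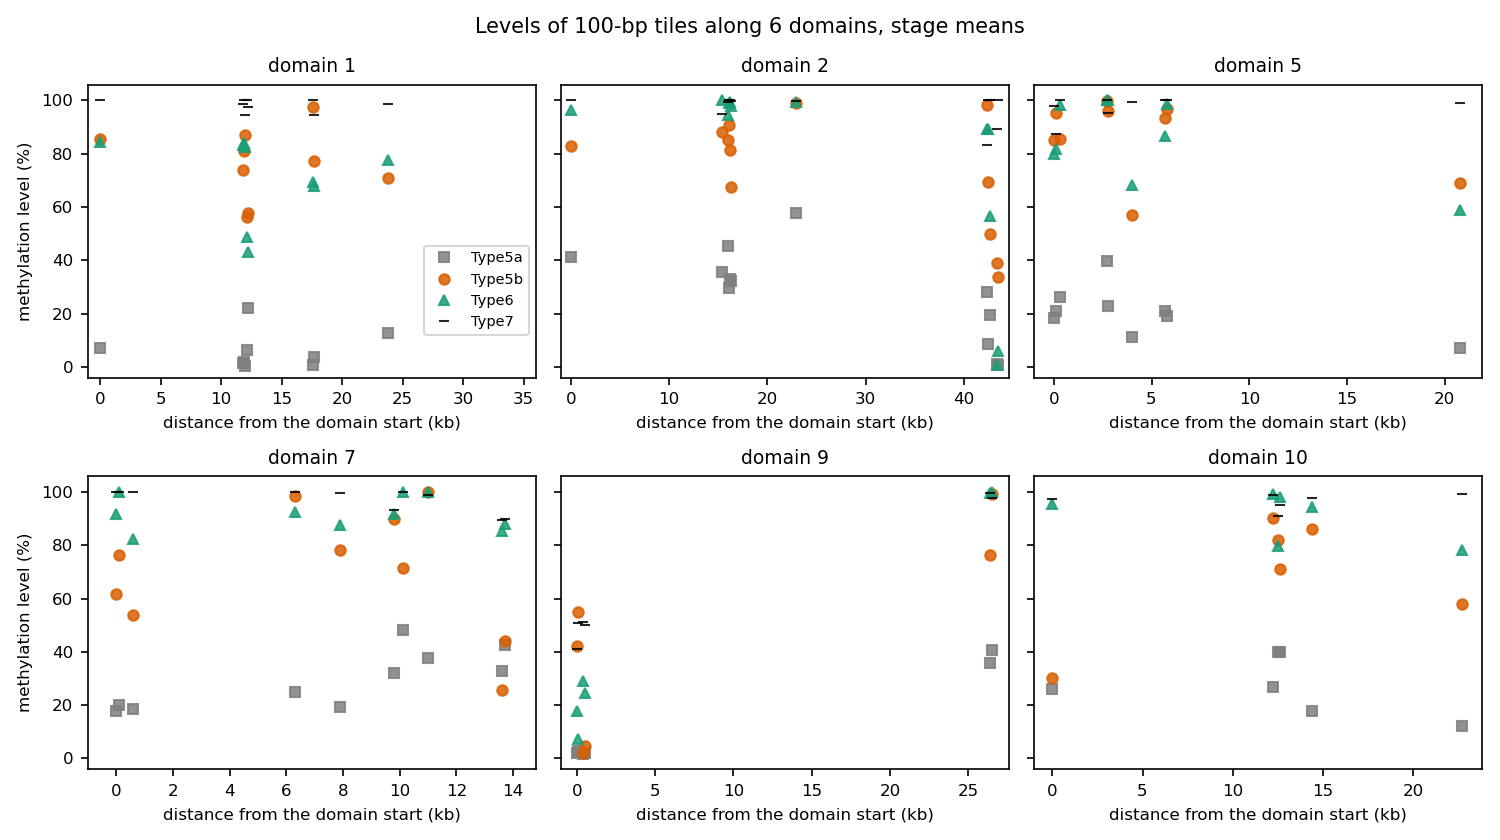
Stage means (%, vertical axis) of the common 100-bp tiles along domains 1, 2, 5, 7, 9 and 10, by distance from the domain start in kb; squares are Type5a, circles Type5b, triangles Type6 and dashes Type7. The low Type6 tiles of domains 2 and 9 sit at a domain end.

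CpG-dense tiles of the domains had lower means and medians in Type5a, Type5b and Type6. Density was counted as the CpG sites listed within 1 kb around a tile; it was not used to choose the domains. The 31 gained common tiles with fewer than 20 sites per kb averaged 28.4% in Type5a, 77.0% in Type5b and 90.5% in Type6. The 31 tiles with 20 to 39 sites averaged 22.6, 79.3 and 84.5%. The 19 tiles with 40 or more, which lie in 6 domains, averaged 12.1, 61.3 and 61.0%. The medians of these 19 were 4.11, 67.4 and 80.7%, so a few low tiles lowered the Type6 mean, and the medians of the sparsest tiles were 26.2, 84.5 and 96.3%. Tiles of one domain share libraries and sequence, so these means are a description. The tiles of domains 1 and 9 were among the denser (medians of 31.5 and 33.5 sites per kb over their gained tiles), and those of domains 4, 8, 12 and 11 the sparser (14, 12, 19 and 16).

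Several domains ended next to sequence that stayed unmethylated. The outermost tiles inside, 24 in all, had a median of 99.3% in Type7, and the nearest tested tiles outside, 1201 to 332201 bp away, had a median of 10.7%; 14 of these 24 were below 20%, 8 above 80%, and 7 passed the test of gain. Both sets are what the choice of the domains compared and were not tested. Some close edges were sharp. At domain 2 the last tile inside was at 100% and a tile 1201 bp beyond was at 2.26%. At domain 10 the corresponding values were 99.1 and 1.64% across the same distance, and at the start of domain 11 they were 34.7 and 3.37%. The tile outside was itself above 80% on both sides of domain 1, on the lower-coordinate side of domains 2, 8, 10 and 12, and on the higher-coordinate side of domains 4 and 11.

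**Figure D5:**
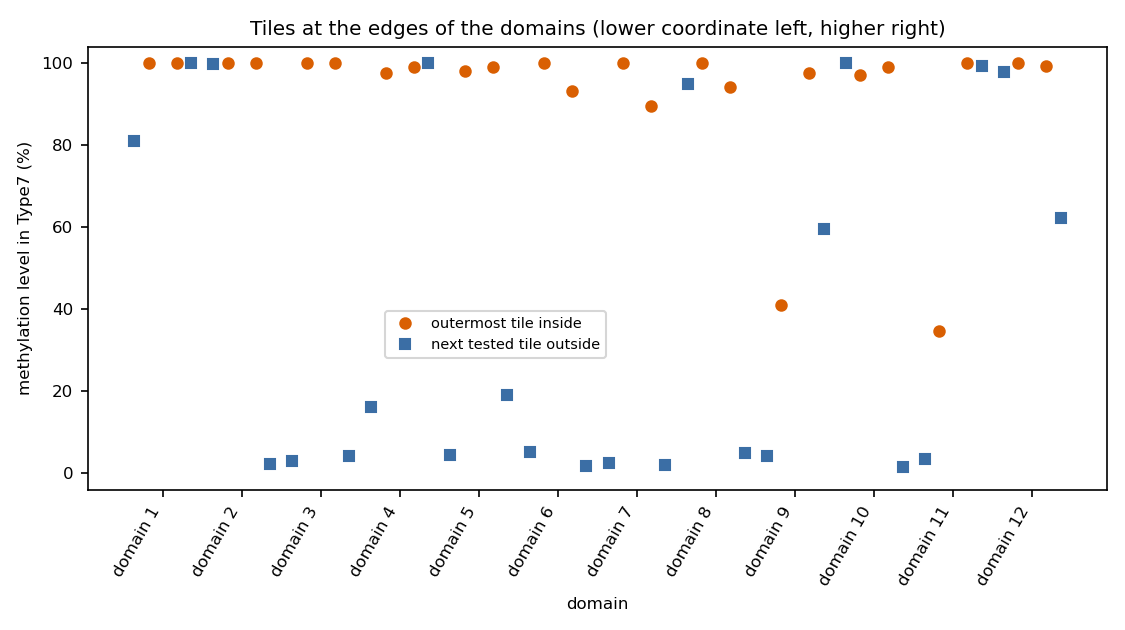
Methylation level in Type7 (%, vertical axis) of the outermost tile inside each domain end (circles) and of the next tested tile outside (squares), with the lower-coordinate end at the left of each pair. Of 24 tiles outside, 14 lie below 20%; of 24 inside, 22 lie above 80%.

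Gene starts were placed near some of the domains, and those outside lay 2.61 kb (Itpr3os) or more from the domain end. Levels of a start are means over the listed sites of its window from 250 bases before to 50 after. Plcb3, which encodes a phospholipase C that releases inositol trisphosphate, starts 3.90 kb past domain 6 and is transcribed toward it; its start read 0% in all 3 Type5b and all 3 Type7 libraries and 15% ± 15.6 in Type6. Bad, a pro-death member of the BCL2 family, lies at the other side and points toward the domain from 8.65 and 9.35 kb, and in the RefSeq table Bad and Plcb3 are neighbours with no coding gene between them. Tsen54, a subunit of the endonuclease that splices tRNAs, starts 2.75 kb past domain 10 and points away; its start stayed at 3.38% or less in all 9 stage means and at 0% in Type5b and Type7.

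Starts were also placed near domains 9, 12 and 4. Agap3, which encodes a GTPase-activating protein of small ARF GTPases, starts 22.5 kb before domain 9 and is transcribed toward it; its start read 0% in 2 libraries each of Type5b and Type7. Itpr3, which encodes an inositol trisphosphate receptor that releases calcium from the endoplasmic reticulum, starts 46.8 kb before domain 12, also toward it, and read 4.61% ± 5.05 (n = 3) in Type7. Its antisense gene Itpr3os starts 2.61 kb before the domain and read 57.2% ± 22.0 (n = 2) in Type4, 16.3% ± 16.7 (n = 3) in Type5a, 97.7% ± 3.21 (n = 2) in Type5b and 100% in 2 Type7 libraries. Domain 4 lies between the starts of Shmt2 (19.9 kb) and Stat6 (58.2 kb); the RefSeq table lists Nxph4 and Lrp1 between these genes.

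The only start placed inside a domain was that of Plekhh3, which encodes a pleckstrin-homology and FERM domain protein. It lies in domain 3 with Tubg2 starting 12.0 kb before the domain. The Plekhh3 start read 18.2% ± 25.7 (n = 2) in Type5a, 55.2% ± 35.6 (n = 2) in Type5b and 100% in all 3 Type6 libraries. It was read in 1 Type7 library, at 100%. No start was placed within 100 kb of domains 2, 5 and 11. Windows there may have had too few listed CpGs or a mismatching base, so this does not show that no gene starts there.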

How the data were processed

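DNA of mouse oocytes was cut with MspI, ligated to methylated adaptors, bisulfite converted, amplified and size selected, per the labels' protocols. The submitters' processing notes name BSMAP 2.89 and mm9; for the methylation caller and any trimming of reads, a name is not given in the sources used here. The authors deposited, for each CpG site and library, the count of reads, the count of methylated reads and the methylated fraction; no listed site has fewer than 3 reads, and duplicate reads cannot be recognised, so intervals cover only library spread.

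Sites with at least 5 reads were averaged into 100-bp tiles of at least 3 sites. Region levels (1532 regions, 1531 tested) were compared with limma 3.58.1 in R 4.3.3, with stage as factor over 31 libraries. Single tiles were tested with a quasi-binomial F test on read counts, and timing with an exact sign-flip test over 13 secondary libraries (smallest possible p 0.000244). All p-values were Benjamini-Hochberg adjusted over the whole table. The scripts, tested on simulated data, used scipy 1.17.1, numpy 2.4.6 and pandas 2.3.3 under Python 3.11.15, and figures were drawn with matplotlib 3.10.9. The tiles named are each domain's gained common tile highest and lowest in Type5b and its common tile lowest in Type7; tiles at domain edges are described by place. The domains and tests were chosen with earlier results of these data known, and the gene starts and the test of relative progress were added after seeing the data. Levels without the libraries of high X methylation, stricter read minima, a cap on reads, other tile definitions, a quasi-binomial region test, 2-stage fits, a replicate block and leaving out each library were tried as alternatives.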

Additional observations from a re-analysis of the deposited data

How the results depend on the processing

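For the rise from Type5a to Type5b (11 domains called), 7 of 8 domains measurable at 10 reads per site were called, 6 of 7 with tiles measured in at least 28 libraries, 7 of 11 in a fit on the 2 stages and 7 of 11 with a replicate block; leaving out single libraries gave 9 to 11. Over single domains and alternatives, 388 values kept their side of the threshold and 16 lost it, and none changed sign. From Type5b to Type6 (0 called), the 2-stage fit called 2 (domains 7 and 10) and the replicate block 1 (domain 7), and leaving out single libraries gave 0. From Type3b to Type4 the replicate block called 1 (domain 4), which no other setting did. Timing (0 called) gave 1 domain behind with at most 10 reads per site (domain 9) and 2 over Type3a to Type6 (domains 1 and 9), and 0 to 1 when single libraries were left out. Of the tile tests, Type5b against Type5a (52 called) gave 21 in the 2-stage fit and 10 to 48 without single libraries. Type6 against Type5b (5 called) gave 2 with at most 10 reads per site, 0 in the 2-stage fit and 1 to 7 without single libraries. Relative progress from Type5b to Type6 (2 called) gave 0 in the 2-stage fit, 5 with the replicate block and 0 to 2 without single libraries. The 2-stage fits have fewer samples; the other causes were not tested. Replicate numbers did not pair the libraries: deviations of same-numbered libraries of different stages correlated with a median of 0.0136 over 84 pairs, against 0.0002 over 340 other pairs. With 134 to 10631 reads per library in a domain (0 in 1 or more libraries for domain 12), levels of domains 11 and 12 are the least certain.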
